A study of Mus musculus with 9 samples.

Results

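The immediate early genes are a set of genes that cells transcribe within minutes of a signal, without first making new protein. The members described here are Egr1, Ier2, Ier3, Fos, Jun, Junb, Atf3, Klf6 and Btg2, together with Myc. They were chosen by gene symbol. All 10 were found among the 28517 genes of the deposited table, and all 10 were among the 18142 genes that passed the filter on low counts. Growth factor receptors reach many immediate early genes through the RAS and ERK kinases, which activate ternary complex factors bound beside serum response factor at promoters. Their transcripts and proteins are short-lived. In liver, Fos, Jun, Egr1, Ier3 and Myc are known for their surge after partial hepatectomy and after injury, and Myc and Jun are known drivers of liver tumours.

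Liver RNA came from db/db mice, an obese and diabetic strain without functional leptin receptor, so every group carries that genotype. Treatment lasted 12 weeks, with PBS as the vehicle, with FGF19WT or with FGF19ΔKLB, and each group held 3 libraries. FGF19 is an intestinal hormone that signals in hepatocytes through FGFR4 and the co-receptor β-klotho. The series title concerns tumour risk of FGF19 and the pairing of its receptors. The deposited headers and sample descriptions use F19_HBS for the group titled FGF19ΔKLB, a code the labels do not explain, so which variant this group received is not settled by them. Nor do the labels give the sequence change of FGF19ΔKLB, the dose, the age or sex of the mice, or the interval between the last dose and tissue collection. They also do not say that replicates came from different animals. The p-values therefore measure only how far these libraries spread, which may be technical.

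Levels are given as CPM, counts scaled with TMM factors to a common total per library, and group values are the mean ± SD of 3 libraries. Comparisons between genes use FPKM, which also divides by transcript length. A gene was called at a Benjamini-Hochberg adjusted p under 0.05 over all genes tested in edgeR's quasi-likelihood test. One fit used all 9 libraries, whose spread is then shared by the 3 groups. The other used only the 6 libraries of the pair compared. Library totals ranged from 65.1 to 73.3 M counts. Libraries 2 and 3 of the FGF19WT group stood apart from the other 7, at 130 and 170 on the first principal component of log2 CPM against -64.0 to -7.85 elsewhere. In these 2 libraries 18.4% of genes lay above every other library and 19% lay below. Among the members, 4 lay above, Egr1, Myc, Atf3 and Ier3, and 0 lay below.

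The order of the members per transcript length differed between groups in which gene stood first. In vehicle liver the leading levels were Junb at 9.51 FPKM and Ier2 at 9.22 FPKM, which did not differ beyond their spread. Jun at 5.92 FPKM, Btg2 at 5.71 FPKM, Klf6 at 3.57 FPKM and Egr1 at 2.94 FPKM followed, and their libraries overlapped between Jun and Btg2 and between Klf6 and Egr1 but not between Btg2 and Klf6. The 4 lowest were Atf3 at 1.63 FPKM, Myc at 1.45 FPKM, Fos at 1.06 FPKM and Ier3 at 0.651 FPKM, and each overlapped its neighbour in this order. With FGF19WT, Egr1 led with 24.8 FPKM and Ier2 was second with 18.7 FPKM, and their libraries overlapped. With FGF19ΔKLB, Ier2 led with 16.4 FPKM and Egr1 was second with 10.5 FPKM, again with overlapping libraries, and Junb followed with 9.25 FPKM. Fos, the member best known for its burst after a stimulus, averaged 1.06 FPKM with vehicle, 0.754 FPKM with FGF19WT and 1.3 FPKM with FGF19ΔKLB.

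**Figure D1:**
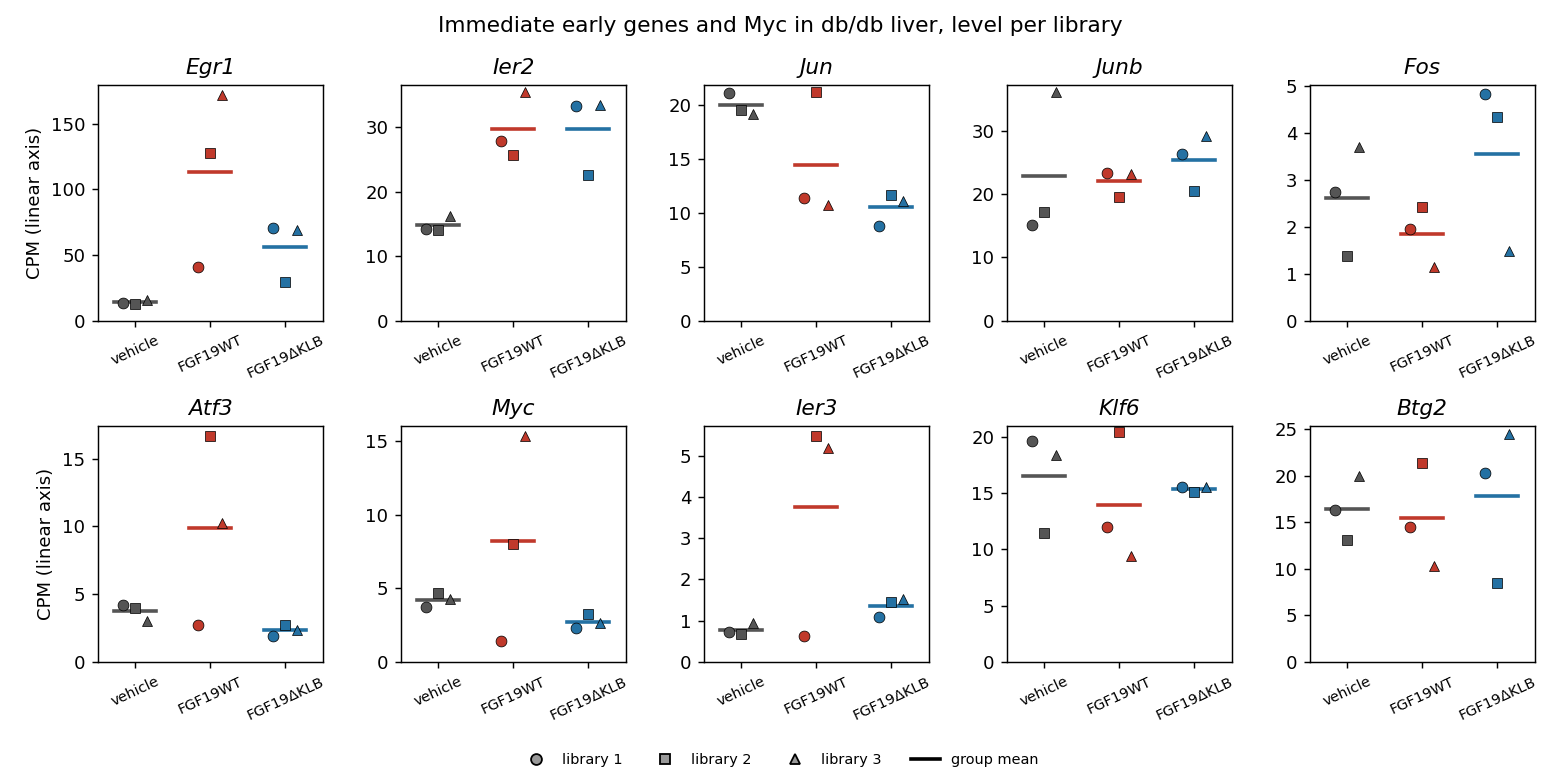
Level of each of the 10 genes in CPM (vertical axes, linear, each from 0) by treatment group, with 1 point per library and a bar at the group mean. Egr1 and Ier2 lie above every vehicle library in all 6 treated libraries, and Jun lies below every vehicle library in all 3 FGF19ΔKLB libraries. FGF19WT libraries 2 and 3 are the 2 highest of all 9 for Egr1, Myc, Atf3 and Ier3.

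Egr1 and Ier2 were the members with higher levels in every treated library. The share of all genes with this pattern was not counted. Taken singly, 22.6% of all genes did not overlap between FGF19WT and vehicle, and 24.6% between FGF19ΔKLB and vehicle, in either direction. Egr1 encodes a zinc finger transcription factor that ERK signalling switches on through ternary complex factors (ENSMUSG00000038418, chromosome 18, 34859823 to 34864984, plus strand, GRCm38). Its level was 13.3, 12.5 and 15.9 CPM in vehicle libraries 1, 2 and 3, then 41.0, 128 and 172 CPM with FGF19WT, and 70.4, 29.3 and 69.0 CPM with FGF19ΔKLB. No treated library overlapped the vehicle libraries, and the treated groups overlapped each other. The group means were 13.9 ± 1.74, 113 ± 66.4 and 56.2 ± 23.3 CPM (SD, n = 3 each).

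For FGF19WT against vehicle, the log2 fold change of Egr1 was 3.03 (SE 0.54), with an adjusted p of 0.0924 in edgeR over 9 libraries and 0.245 over 6. For FGF19ΔKLB against vehicle, it was 2.02, with an adjusted p of 0.313 in edgeR over 9 libraries. In the fit of the 6 vehicle and FGF19ΔKLB libraries, Egr1 rose 4.04-fold (95% interval of the log2 value 1.21 to 2.82), with an adjusted p of 0.0465 in edgeR. That call was lost when any of vehicle libraries 1, 2 and 3 or FGF19ΔKLB libraries 1 and 3 was left out, with adjusted p-values of 0.111 to 0.164 in edgeR. FGF19ΔKLB library 2 had the lowest Egr1 of the treated libraries. It also had a summed level of neutrophil markers of 184 CPM against 1.68 to 35.6 CPM in the other 8, and the part of this in the Egr1 value was not tested.

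Ier2 encodes a nuclear protein of the early response with a role in cell motility and proliferation (ENSMUSG00000053560, chromosome 8, 84661331 to 84662852, minus strand). Its level was 14.2, 14.1 and 16.1 CPM in vehicle, 27.8, 25.7 and 35.5 CPM with FGF19WT, and 33.3, 22.5 and 33.4 CPM with FGF19ΔKLB. The vehicle libraries lay close together, and all 6 treated libraries lay above them. The 2 treated means were nearly equal, at 29.6 ± 5.15 and 29.7 ± 6.25 CPM against 14.8 ± 1.16 CPM in vehicle (SD, n = 3 each).

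The log2 fold change of Ier2 was 1.0 (SE 0.20) for FGF19WT, with an adjusted p of 0.112 in edgeR over 9 libraries. For FGF19ΔKLB it was 1.01 (SE 0.20), with an adjusted p of 0.201 in the same fit. Over the 6 libraries of vehicle and FGF19ΔKLB, Ier2 rose 2.01-fold (95% interval of the log2 value 0.60 to 1.41), with an adjusted p of 0.0438 in edgeR. It lost that call when vehicle library 1, 2 or 3 or FGF19ΔKLB library 1 or 3 was left out, with adjusted p-values of 0.0988 to 0.153 in edgeR. Unlike Egr1, Ier2 was not higher in both libraries of the FGF19WT group that stood apart, since library 2 had the lowest value of that group.

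Ier3 encodes a stress-inducible protein that binds ERK and affects cell survival (ENSMUSG00000003541, chromosome 17, 35821684 to 35822923, plus strand). It was the lowest member per length in vehicle. Its level was 0.721, 0.674 and 0.947 CPM in vehicle, 0.630, 5.48 and 5.20 CPM with FGF19WT, and 1.09, 1.45 and 1.52 CPM with FGF19ΔKLB. The FGF19ΔKLB libraries all lay above vehicle, while the FGF19WT group was split, with library 1 below every other library and libraries 2 and 3 above every other library. Its log2 fold changes were 2.27 for FGF19WT (adjusted p 0.150 in edgeR over 9 libraries) and 0.79 for FGF19ΔKLB (adjusted p 0.829 in the same fit and 0.264 over 6 libraries).

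Jun, Fos and Junb encode subunits of the AP-1 transcription factor, which binds DNA as a dimer. The 250 bases before their RefSeq transcription starts (GRCm38.p6) are shown because Jun differed in direction from Egr1 and Ier2 while Fos and Junb did neither. Promoter entries were matched for 7 of the 10 members, Atf3, Btg2, Fos, Ier3, Jun, Junb and Klf6 (not matched: Egr1, Ier2, Myc). Capitals mark matches, on either strand, to the TATA box (TATAAA), the CCAAT box, the GC box (GGGCGG) or the core of the cyclic AMP response element (TGACG). Fos is at chr12:85473640-85473889 on the plus strand, Jun at chr4:95052223-95052472 on the minus strand and Junb at chr8:84978749-84978998 on the minus strand, each written 5′ to 3′ along the gene.
Fos: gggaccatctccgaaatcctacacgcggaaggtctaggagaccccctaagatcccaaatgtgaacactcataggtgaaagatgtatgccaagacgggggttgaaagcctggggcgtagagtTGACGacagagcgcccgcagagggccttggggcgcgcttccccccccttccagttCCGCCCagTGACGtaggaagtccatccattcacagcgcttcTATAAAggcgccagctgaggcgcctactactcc
Jun: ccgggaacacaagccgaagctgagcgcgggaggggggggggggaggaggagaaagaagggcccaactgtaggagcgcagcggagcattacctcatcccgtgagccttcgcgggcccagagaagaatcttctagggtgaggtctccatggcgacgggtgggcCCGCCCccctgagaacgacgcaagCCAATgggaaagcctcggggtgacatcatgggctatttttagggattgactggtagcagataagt
Junb: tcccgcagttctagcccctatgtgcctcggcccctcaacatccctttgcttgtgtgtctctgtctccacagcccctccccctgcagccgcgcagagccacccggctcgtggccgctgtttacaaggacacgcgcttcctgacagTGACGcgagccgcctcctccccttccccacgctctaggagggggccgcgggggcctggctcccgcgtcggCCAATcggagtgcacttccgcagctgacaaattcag

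The 3 promoters share no full set of these elements. Fos holds a TATA box 33 to 28 bases before its start, 2 response element cores at 129 to 125 and 66 to 62 bases, and a GC box on the opposite strand at 74 to 69 bases. Jun holds a GC box on the opposite strand 89 to 84 bases before its start and a CCAAT box at 65 to 61 bases. Junb holds a response element core at 106 to 102 bases and a CCAAT box at 36 to 32 bases. Among 32851 promoters of the same length, 12.4% hold the TATA box, 33.8% the CCAAT box, 32.7% the GC box and 17.8% the response element core. The full response element TGACGTCA, which contains that core, is held by 1.55% of promoters and by 1 matched member, Btg2, at 166 to 159 bases. Of the 7 matched members, 6 hold the GC box, 5 the CCAAT box, 4 the response element core and 1 the TATA box. The EGR site GCGNGGGCG (4.7% of promoters) is held by 1, Btg2, and the E box CACGTG (6.02%) by 1, Klf6. The CArG box of serum response factor (1.47% of promoters), the AP-1 site TGANTCA (6.75%) and the ETS site CCGGAAGT (2.88%) had no match in the 7 windows. Bases farther from the starts were not searched, and near matches were not counted, so elements of these kinds may lie outside the search. Each match is a description of letters, and says nothing of which factor was bound in these livers.

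Jun was the AP-1 gene with the least spread in vehicle and the one that lay lower in every FGF19ΔKLB library (ENSMUSG00000052684, chromosome 4, 95049034 to 95052222, minus strand). Its level was 21.1, 19.6 and 19.2 CPM in vehicle, 11.4, 21.2 and 10.7 CPM with FGF19WT, and 8.78, 11.6 and 11.1 CPM with FGF19ΔKLB. All FGF19ΔKLB libraries lay below all vehicle libraries. In the FGF19WT group libraries 1 and 3 lay in the FGF19ΔKLB range and library 2 lay above every vehicle library, so this group overlapped both others. The means were 20.0 ± 1.04, 14.4 ± 5.89 and 10.5 ± 1.52 CPM (SD, n = 3 each).

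In the fit of the 6 vehicle and FGF19ΔKLB libraries, Jun fell 1.90-fold, a log2 fold change of -0.93 (95% interval -1.26 to -0.59), with an adjusted p of 0.0304 in edgeR. Over 9 libraries the log2 fold change was -0.92 (SE 0.26), with an adjusted p of 0.384 in edgeR. Leaving out vehicle library 1, 2 or 3 or FGF19ΔKLB library 1 or 3 ended the 6-library call, with adjusted p-values of 0.0668 to 0.115 in edgeR. For FGF19WT against vehicle, the log2 fold change of Jun was -0.47, with an adjusted p of 0.361 in edgeR over 9 libraries. The antisense gene Junos overlaps Jun over 689 bases, and the sources used here do not say whether counting used strand. Junos stood at 0.147 to 0.962 CPM over the 9 libraries, so its reads were few beside those of Jun.

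Junb, whose product often opposes c-Jun in AP-1 dimers, had its widest spread in vehicle (ENSMUSG00000052837, chromosome 8, 84974484 to 84978718, minus strand). Its level was 15.1, 17.2 and 36.2 CPM in vehicle, 23.3, 19.5 and 23.2 CPM with FGF19WT, and 26.4, 20.5 and 29.2 CPM with FGF19ΔKLB. All groups overlapped, and vehicle library 3 was the highest of all 9. Its log2 fold changes were -0.05 and 0.15 for FGF19WT and FGF19ΔKLB against vehicle, with adjusted p-values of 0.938 and 0.946 in edgeR over 9 libraries. Without vehicle library 3 they were 0.44 and 0.65. Prdx2, which overlaps Junb over 351 bases, stood at 89.9 CPM in vehicle library 3 and 86.4 and 92.3 CPM in the other vehicle libraries. It was 87.8, 59.4 and 65.3 CPM with FGF19WT and 77.3, 91.9 and 86.7 CPM with FGF19ΔKLB. The part of Prdx2 reads in the Junb values was not tested.

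Fos stayed low in every library (ENSMUSG00000021250, chromosome 12, 85473890 to 85477273, plus strand). Its level was 2.74, 1.38 and 3.70 CPM in vehicle, 1.95, 2.42 and 1.15 CPM with FGF19WT, and 4.84, 4.34 and 1.47 CPM with FGF19ΔKLB. All groups overlapped, and the lowest and highest libraries of the FGF19ΔKLB group differed more than the group means did. The log2 fold changes against vehicle were -0.50 for FGF19WT and 0.45 for FGF19ΔKLB, with adjusted p-values of 0.624 and 0.896 in edgeR over 9 libraries. Within vehicle and within FGF19ΔKLB, the SD of log2 CPM of Fos was 0.72 and 0.94, above that of 84.7% and 86.8% of genes tested.

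Set against Jun within the same library, Egr1, Ier2 and Junb gave the following ratios of FPKM. Egr1 over Jun was 0.448, 0.455 and 0.588 in vehicle, 2.57, 4.27 and 11.4 with FGF19WT, and 5.71, 1.79 and 4.42 with FGF19ΔKLB. Ier2 over Jun was 1.41, 1.51 and 1.76 in vehicle, 5.12, 2.53 and 6.93 with FGF19WT, and 7.94, 4.06 and 6.29 with FGF19ΔKLB. Thus Jun exceeded Egr1 in all 3 vehicle libraries and was below it in all 6 treated libraries, and the ratios of both genes did not overlap between vehicle and treated libraries. Junb over Jun was 0.990, 1.22 and 2.62 in vehicle, 2.84, 1.27 and 3 with FGF19WT, and 4.16, 2.45 and 3.65 with FGF19ΔKLB, with overlap between vehicle and both treated groups. These ratios join values already given and carry no test of their own.

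**Figure D2:**
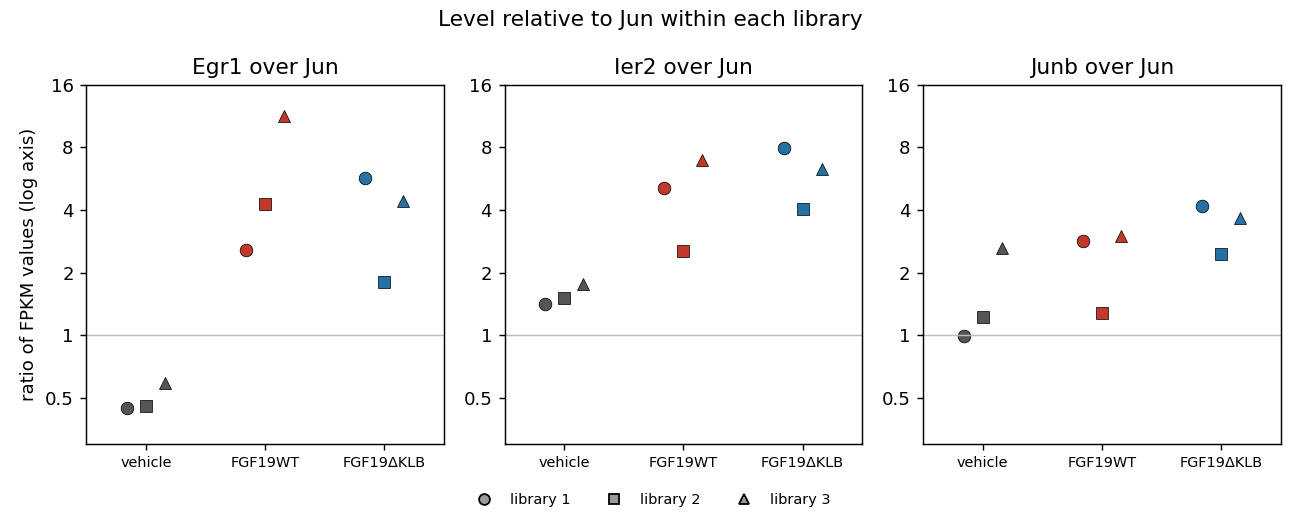
Ratio of the FPKM of Egr1, Ier2 and Junb to that of Jun in each library (vertical axes, log scale), by treatment group, with 1 point per library and a horizontal line at a ratio of 1. Egr1 over Jun lies between 0.448 and 0.588 in vehicle and between 1.79 and 11.4 in the 6 treated libraries.

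Atf3 and Myc shared a split within the FGF19WT group. Atf3 encodes a stress-induced member of the ATF family that the integrated stress response raises (ENSMUSG00000026628, chromosome 1, 191170296 to 191218039, minus strand). Its level was 4.21, 3.98 and 3.01 CPM in vehicle, 2.74, 16.7 and 10.2 CPM with FGF19WT, and 1.94, 2.75 and 2.36 CPM with FGF19ΔKLB. FGF19WT libraries 2 and 3 lay above every other library, FGF19WT library 1 lay below vehicle, and all FGF19ΔKLB libraries lay below vehicle. The log2 fold changes against vehicle were 1.40 for FGF19WT (adjusted p 0.214) and -0.67 for FGF19ΔKLB (adjusted p 0.818) in edgeR over 9 libraries. For FGF19ΔKLB over 6 libraries the adjusted p of Atf3 was 0.225 in edgeR.

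Myc encodes a transcription factor of growth and ribosome synthesis (ENSMUSG00000022346, chromosome 15, 61985391 to 61990350, plus strand). Its level was 3.70, 4.64 and 4.29 CPM in vehicle, 1.41, 7.98 and 15.3 CPM with FGF19WT, and 2.29, 3.21 and 2.62 CPM with FGF19ΔKLB. The lowest and the 2 highest of all 9 libraries belonged to the FGF19WT group, and all FGF19ΔKLB libraries lay below all vehicle libraries. For Myc the log2 fold changes against vehicle were 0.97 for FGF19WT (adjusted p 0.437) and -0.64 for FGF19ΔKLB (adjusted p 0.872) in edgeR over 9 libraries. Over 6 libraries the adjusted p for FGF19ΔKLB was 0.211 in edgeR. Within the FGF19WT group the SD of log2 CPM of Myc was 1.77, above that of 89.9% of genes tested.

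Leaving out library 1 of the FGF19WT group gave calls for 5 members in FGF19WT against vehicle. They were Egr1 at a log2 fold change of 3.42 (adjusted p 0.000417), Ier3 at 2.76 (0.000497), Atf3 at 1.84 (0.00228), Myc at 1.46 (0.00816) and Ier2 at 1.04 (0.00825), all adjusted p-values of edgeR. That fit called 27.4% of all genes. Leaving out libraries 2 and 3 instead left 1 FGF19WT library, assumed to vary like the other groups, and the log2 fold changes were then 1.56 for Egr1, 0.91 for Ier2, -0.31 for Ier3, -0.44 for Atf3 and -1.58 for Myc. Only Egr1 and Ier2 thus kept a positive value among these 5, and the fit called 0 of the 10 members and 0.10% of all genes. Libraries 2 and 3 also had the lowest summed levels of sinusoidal endothelial markers, 62.5 and 61.3 CPM against 92.8 to 212 CPM elsewhere. Kupffer cell and macrophage markers summed to 139 and 49.97 CPM in them against 260 to 457 CPM elsewhere, and the part of either in the members' values was not tested. In whole liver RNA, fewer cells of a type and less RNA per cell cannot be told apart.

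Klf6 and Btg2 did not separate the groups. Klf6 encodes a zinc finger factor of the Krüppel-like family (ENSMUSG00000000078, chromosome 13, 5861482 to 5870394, plus strand). Its level was 19.6, 11.4 and 18.4 CPM in vehicle, 12.0, 20.4 and 9.38 CPM with FGF19WT, and 15.5, 15.1 and 15.5 CPM with FGF19ΔKLB. The last 3 lay within the range of both other groups, and their SD of log2 CPM, 0.02, was below that of nearly all genes (percentile 1.11). Klf6 had log2 fold changes of -0.24 and -0.10 for FGF19WT and FGF19ΔKLB against vehicle, with adjusted p-values of 0.676 and 0.966 in edgeR over 9 libraries.

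Btg2 encodes an antiproliferative protein that recruits the CCR4-NOT deadenylase and is a target of p53 (ENSMUSG00000020423, chromosome 1, 134075170 to 134079120, minus strand). Its level was 16.3, 13.0 and 20.0 CPM in vehicle, 14.5, 21.4 and 10.3 CPM with FGF19WT, and 20.3, 8.51 and 24.5 CPM with FGF19ΔKLB. All groups overlapped, and FGF19ΔKLB held both the lowest and the highest library. Btg2 had log2 fold changes of -0.09 and 0.11 against vehicle, with adjusted p-values of 0.913 and 0.971 in edgeR over 9 libraries.

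Over the members, 0 of 10 were called for FGF19WT against vehicle in edgeR over 9 libraries, a fit that called 0.110% of all genes, and 0 of 10 over 6 libraries, where 0.00574% were called. At an unadjusted p under 0.05 there were 4 members, against 18.8% of all genes. DESeq2 called 3 members, Egr1, Ier2 and Ier3, all higher, against 9.73% of all genes. Egr1 and Ier2 were the 2 members whose groups did not overlap, and 22.6% of all genes did not overlap. The median log2 fold change of the 10 was 0.46, with 5 positive and 5 negative.

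For FGF19ΔKLB against vehicle, 0 of 10 members were called in edgeR over 9 libraries, against 0.0110% of all genes, and 3 were at an unadjusted p under 0.05, against 8.35%. Over 6 libraries 3 of 10 were called, Egr1 and Ier2 higher and Jun lower, against 1.68% of all genes, 0.894% higher and 0.790% lower. The same 3 were called over 7 libraries without FGF19WT libraries 2 and 3, where 1.52% of all genes were called. Without FGF19WT library 1 alone, 1 member was called, Egr1 (adjusted p 0.0361 in edgeR), against 0.904% of all genes. DESeq2 over 9 libraries called 2, Egr1 and Ier2, against 2.06%. The groups did not overlap for 6 members, Egr1, Ier2 and Ier3 higher and Jun, Atf3 and Myc lower, while 24.6% of all genes did not overlap, 12.4% higher and 12.2% lower. The median log2 fold change of the 10 was 0.13, with 6 positive and 4 negative. Both comparisons share the vehicle libraries.

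Summed levels of cell type markers also differed between the groups. From vehicle to FGF19ΔKLB, the summed levels did not overlap for 5 of the 10 marker lists. Sinusoidal endothelial markers were at 169 to 192 CPM in vehicle and 92.8 to 144 CPM with FGF19ΔKLB, and stellate cell and matrix markers at 293 to 370 CPM and 121 to 259 CPM. T and NK cell markers were at 8.71 to 18.7 CPM and 3.31 to 4.96 CPM, and B and plasma cell markers at 103 to 246 CPM and 31 to 70.1 CPM. Summed hepatocyte markers were higher, at 132484 to 190406 CPM in vehicle and 239243 to 338463 CPM with FGF19ΔKLB. A sum follows its most abundant genes. Gene by gene, 7 of the 12 hepatocyte markers were positive and 5 negative for FGF19ΔKLB against vehicle in edgeR over 9 libraries. With FGF19WT, T and NK cell markers (1.96 to 6.59 CPM), B and plasma cell markers (4.03 to 30.3 CPM), stellate cell markers (218 to 257 CPM) and cholangiocyte markers (40.8 to 55.4 CPM, against 64.9 to 82.5 CPM in vehicle) lay below vehicle in every library. Of the 8 cholangiocyte markers, 4 were positive and 4 negative for FGF19WT against vehicle in edgeR over 9 libraries. No marker list had a defining marker at 0 in every library. The part of these markers in the values of Egr1, Ier2, Jun and the other members was not tested.

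The proteins were also compared with each other. In FGF19ΔKLB against FGF19WT, 0 of 10 members were called in edgeR over 9 libraries, where the share of all genes called was also 0%, and 0 over 6 libraries, where it was 0.00584%. There were 2 members at an unadjusted p under 0.05, against 12.5% of genes. For Ier2 the log2 fold change was 0.00 (95% interval -0.44 to 0.44), so a difference of either sign up to that size was not resolved. For Egr1 it was -1.01 (95% interval -2.15 to 0.13), with an adjusted p of 0.446 in edgeR. The values of Atf3, Myc and Ier3 were -2.07, -1.60 and -1.48, with adjusted p-values of 0.237, 0.377 and 0.412 in edgeR over 9 libraries. DESeq2 called 1 member, Atf3, lower, against 4.65% of genes. Without FGF19WT library 1, edgeR called 4, Atf3 at -2.51, Myc at -2.09, Ier3 at -1.97 and Egr1 at -1.40, in a fit that called 20.2% of genes. Without FGF19WT libraries 2 and 3 the values were -0.23 for Atf3, 0.94 for Myc, 1.10 for Ier3 and 0.45 for Egr1, with 0 members called and 0.0352% of all genes called. No member's groups were free of overlap in this comparison, against 13.5% of all genes.

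**Figure D3:**
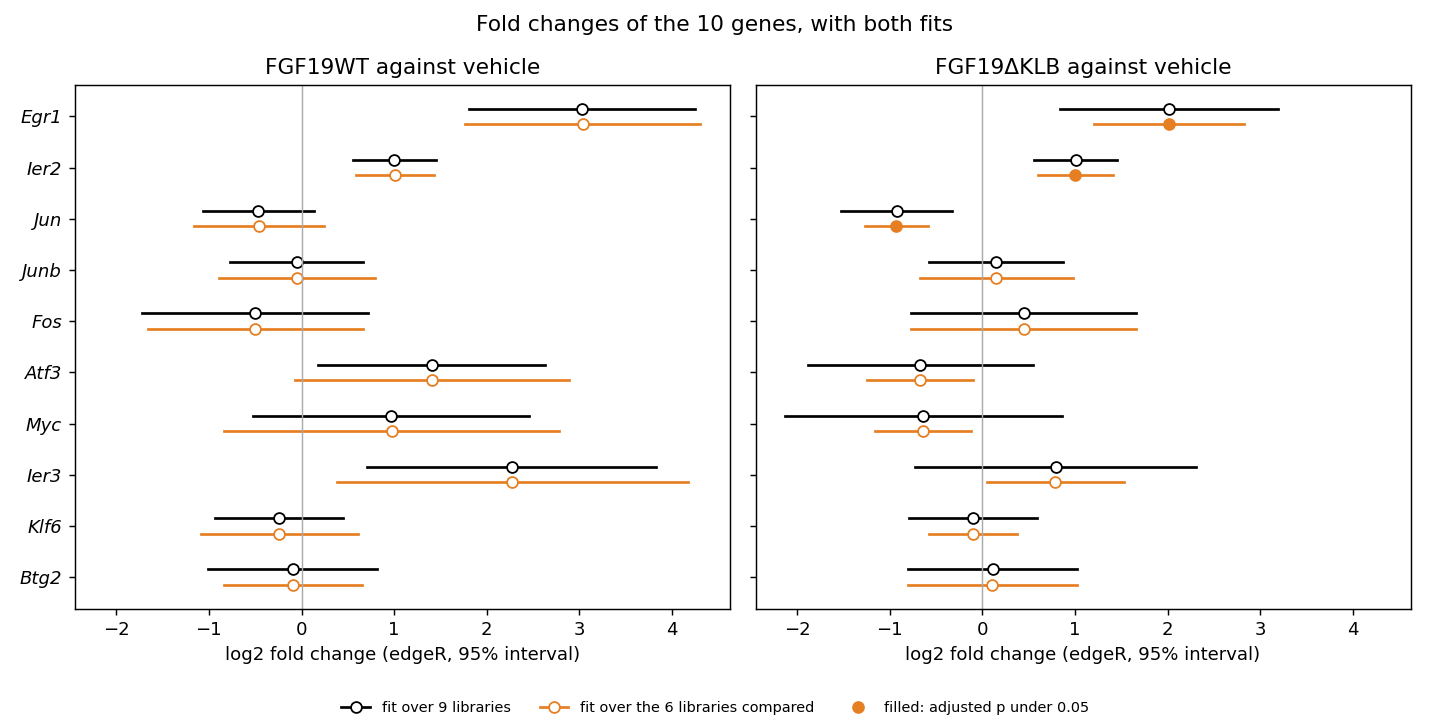
Log2 fold change of each of the 10 genes (horizontal axes) with its 95% interval in edgeR, for each protein against vehicle, over 9 libraries and over the 6 libraries of the pair. For FGF19ΔKLB against vehicle the 6-library intervals of Egr1 (1.21 to 2.82), Ier2 (0.60 to 1.41) and Jun (-1.26 to -0.59) are narrower than those over 9 libraries, at nearly the same values.

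The other genes of the ERK response were described by a list of 13 feedback and target genes. They encode dual specificity phosphatases, Sprouty and Spred proteins, ETS factors, the receptor inhibitor Il17rd and cyclin D1 (Ccnd1). For FGF19WT against vehicle, 10 were positive and 3 negative, with a median of 1.46 against a median near 0 for all genes, and 0 were called in edgeR over 9 or 6 libraries. Over 9 libraries 8 of the 13 were at an unadjusted p under 0.05 in edgeR, against 18.8% of all genes. Etv5, an ETS factor, stood at 2.78, 1.70 and 3.39 CPM in vehicle, 7.97, 14.1 and 10.2 CPM with FGF19WT, and 8.18, 5.74 and 7.44 CPM with FGF19ΔKLB. Like Egr1 it had no overlap between vehicle and treated libraries, and its adjusted p-values in edgeR over 9 libraries were 0.0752 for FGF19WT and 0.243 for FGF19ΔKLB. Dusp4, an ERK phosphatase, stood at 0.975, 1.32 and 1.01 CPM in vehicle, 3.74, 15.1 and 9.32 CPM with FGF19WT and 1.88, 2.35 and 3.51 CPM with FGF19ΔKLB. Its adjusted p-values in the same fit were 0.0841 and 0.548. In this list Dusp4, Dusp6, Spred1 and Etv4 also lay above every vehicle library in all treated libraries. Etv1, at 0.307 to 0.534 CPM in vehicle, lay below every vehicle library in all treated libraries.

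For FGF19ΔKLB, 11 of the 13 were positive, with a median of 0.67. Over 9 libraries 0 were called and 7 were at an unadjusted p under 0.05 in edgeR, against 8.35% of all genes. In the 6-library fit 2 rose. Dusp6, which dephosphorylates ERK, rose by a log2 fold change of 1.05 (adjusted p 0.0246 in edgeR), from 24.9, 20.4 and 19.1 CPM to 49.7, 44.8 and 38.9 CPM. Spry4, an inhibitor of receptor signalling to RAS, rose by 2.40 (adjusted p 0.0385), from 9.71, 3.40 and 6.29 CPM to 39.6, 31.5 and 31.3 CPM. Dusp6 kept its call without FGF19ΔKLB library 2 or 3 and lost it without any of the other 4 (adjusted p up to 0.0818 in edgeR). Spry4 kept its call without vehicle library 1 or 2 and lost it without any of the other 4 (up to 0.126). In the FGF19WT libraries Spry4 was 37.1, 8.77 and 7.69 CPM, high in library 1 alone. Dusp6 was 38.9, 94.8 and 77.7 CPM in the same libraries, lowest in library 1. Spry4 and Egr1 thus differed in which FGF19WT library was highest.

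Of 39 other immediate early genes listed, 37 were tested. For FGF19WT 13 were positive and 24 negative (median -0.33), for FGF19ΔKLB 10 and 27 (median -0.29), and 0 were called in edgeR over 9 libraries, with 6 and 7 at an unadjusted p under 0.05, where 18.8% and 8.35% of all genes were. Markers of some non-parenchymal cells were also mostly negative in the same fits, and those of others were not. Sinusoidal endothelial markers had 0 of 10 positive with either protein (medians -0.74 and -0.58). Kupffer cell and macrophage markers had 0 and 3 of 12 positive (medians -1.27 and -0.48), and T and NK cell markers 1 of 11 with each (medians -1.61 and -1.38). B and plasma cell markers had 2 and 1 of 8 positive, and stellate cell and matrix markers 3 of 12 with each. Neutrophil markers had 0 of 9 positive with FGF19WT but 8 of 9 with FGF19ΔKLB (median 1.51). Erythroid markers had 5 of 6 positive with each protein, platelet markers 2 and 4 of 4, and cholangiocyte markers 4 and 5 of 8. The part of these markers in the values of this list was not tested. In the 6-library fit for FGF19ΔKLB 2 of the other immediate early genes fell. Gem, a small GTPase, was 2.02, 1.77 and 1.92 CPM in vehicle and 0.367, 0.538 and 0.197 CPM with FGF19ΔKLB (log2 fold change -2.37, adjusted p 0.0440 in edgeR). Nr4a2, an orphan nuclear receptor, was 0.614, 0.717 and 0.908 CPM in vehicle and 0.0587, 0.150 and 0.0983 CPM with FGF19ΔKLB (-2.85, adjusted p 0.0475). Gem kept its call only without FGF19ΔKLB library 2 (adjusted p up to 0.144 in edgeR without another library), and Nr4a2 lost it without any 1 of the 6 libraries (0.0536 to 0.148). Dusp5 and Phlda1, the genes of this list with the smallest p for FGF19WT, had log2 fold changes of 2.63 and 1.80 with adjusted p-values of 0.132 and 0.170 in edgeR. Both were high in FGF19WT libraries 2 and 3, with Dusp5 at 5.80 and 9.01 CPM and Phlda1 at 62.9 and 63.1 CPM.

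Among 14 tested AP-1 partners and relatives, 6 were positive and 8 negative for FGF19WT (median -0.08) and 5 and 9 for FGF19ΔKLB (median -0.24), with 0 called over 9 libraries. Batf and Jdp2, with the smallest p for FGF19WT, had log2 fold changes of -2.06 and -1.85 (adjusted p 0.137 and 0.142 in edgeR).

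Serum response factor, the ternary complex factors and their coactivators, 10 genes tested, had 0 calls in edgeR in all 3 comparisons over 9 and 6 libraries, with medians of 0.17 and 0.05 against vehicle for FGF19WT and FGF19ΔKLB. Crebbp, a histone acetyltransferase that binds phosphorylated CREB, had the smallest p for FGF19WT, with a log2 fold change of 0.56 (adjusted p 0.168 in edgeR over 9 libraries). The transcripts of these 10 genes thus had no called difference, and the activity of their proteins was not measured.

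Around Myc, 18 genes of its family and of the MAX network were tested, and 0 were called in edgeR over 9 or 6 libraries. For FGF19WT 14 were positive (median 0.09), and for FGF19ΔKLB 12 (median 0.20). Mxd3, a MAX partner that competes with MYC, stood at 0.160, 0 and 0.141 CPM in vehicle and at 0.396, 1.58 and 2.87 CPM with FGF19WT. Aurka, a mitotic kinase that stabilises MYC proteins, was 1.64, 1.43 and 1.13 CPM in vehicle and 1.55, 9.62 and 11 CPM with FGF19WT. As with Myc, libraries 2 and 3 were the high ones.

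The list of 30 MYC target genes moved little. Of these, 21 were positive and 9 negative with each protein, with medians of 0.16 for FGF19WT and 0.14 for FGF19ΔKLB, and 0 were called in edgeR over 9 or 6 libraries. Ranbp1, a regulator of nuclear transport, was 16.8, 13.3 and 14.3 CPM in vehicle and 16.6, 28.2 and 28.6 CPM with FGF19WT. Npm1, which encodes nucleophosmin, was 99.2, 121 and 119 CPM in vehicle and 192, 183 and 132 CPM with FGF19ΔKLB, a group in which Myc was below vehicle in every library. The adjusted p-values were 0.184 for Ranbp1 with FGF19WT and 0.482 for Npm1 with FGF19ΔKLB in edgeR over 9 libraries.

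Genes near Atf3 in the integrated stress response, 12 tested, had 10 positive for FGF19WT (median 1.23) and 7 positive for FGF19ΔKLB (median 0.08). None was called in edgeR over 9 or 6 libraries. For FGF19WT over 9 libraries 6 were at an unadjusted p under 0.05, against 18.8% of all genes. For FGF19ΔKLB against FGF19WT 11 of the 12 were negative (median -1.15), with 7 at an unadjusted p under 0.05, against 12.5%. Ddit4, an inhibitor of mTORC1, was 16.2, 13.8 and 10.9 CPM in vehicle, 10.2, 85.0 and 67.6 CPM with FGF19WT and 6.35, 7.43 and 9.57 CPM with FGF19ΔKLB. Vldlr, a lipoprotein receptor that ATF4 raises, was 27.3, 18.5 and 15.5 CPM in vehicle, 40.6, 88.9 and 72.7 CPM with FGF19WT and 17.7, 17.0 and 7.16 CPM with FGF19ΔKLB. Both had an adjusted p of 0.237 for FGF19ΔKLB against FGF19WT in edgeR over 9 libraries. The cystine transporter gene Slc7a11 was 0.0534, 0 and 0 CPM in vehicle and 0.879, 1.51 and 0.522 CPM with FGF19WT. With FGF19ΔKLB it was 0.179 to 0.246 CPM, also above every vehicle library, though these levels are near the floor. Its adjusted p-values against vehicle were 0.112 for FGF19WT and 0.436 for FGF19ΔKLB in edgeR over 9 libraries.

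For the family of Btg2 and its deadenylase partners, 12 genes were tested. Of these, 6 were positive with FGF19WT and 8 with FGF19ΔKLB. Btg3, a relative with antiproliferative activity, rose in the 6-library fit for FGF19ΔKLB from 1.95, 2.83 and 3.60 CPM to 7.13, 7.24 and 7.58 CPM (log2 fold change 1.39, adjusted p 0.0463 in edgeR). Btg3 lost its call without any 1 of the 6 libraries (adjusted p 0.0611 to 0.12 in edgeR). In FGF19WT it was 4.32, 40.1 and 32.4 CPM. Cnot7, a deadenylase subunit, was 13.3, 11.4 and 9.67 CPM in vehicle, 25.2, 21.5 and 20.5 CPM with FGF19WT and 23.2, 18.2 and 18.7 CPM with FGF19ΔKLB. Like Egr1 and Ier2 it had no overlap between vehicle and treated libraries, with adjusted p-values of 0.0924 and 0.235 in edgeR over 9 libraries. The p53 list, 12 genes, had 9 and 10 positive (medians 0.33 and 0.40) and 0 called over 9 or 6 libraries. Bax, the p53 target with the smallest p for FGF19WT, had a log2 fold change of 1.25 (adjusted p 0.147 in edgeR).

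The decay factors that bind AU-rich elements, sequences that shorten the life of early transcripts, numbered 9 tested genes, with medians of 0.03 and 0.06 and 0 called over 9 or 6 libraries. Zfp36l2, one of these RNA-binding proteins, was 41.6, 31.3 and 33.4 CPM in vehicle and 28, 13.7 and 12.2 CPM with FGF19WT (log2 fold change -0.98, adjusted p 0.151 in edgeR over 9 libraries). Of 10 heat shock genes, 7 were positive with FGF19WT and 5 with FGF19ΔKLB, with 0 called over 9 libraries. Hspb1, a small heat shock protein, fell in the 6-library fit for FGF19ΔKLB from 6.09, 5.46 and 6.69 CPM to 1.47, 2.51 and 2.33 CPM (adjusted p 0.0386 in edgeR). Hspb1 kept its call only without FGF19ΔKLB library 2 (adjusted p up to 0.126 in edgeR without another library).

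**Figure D4:**
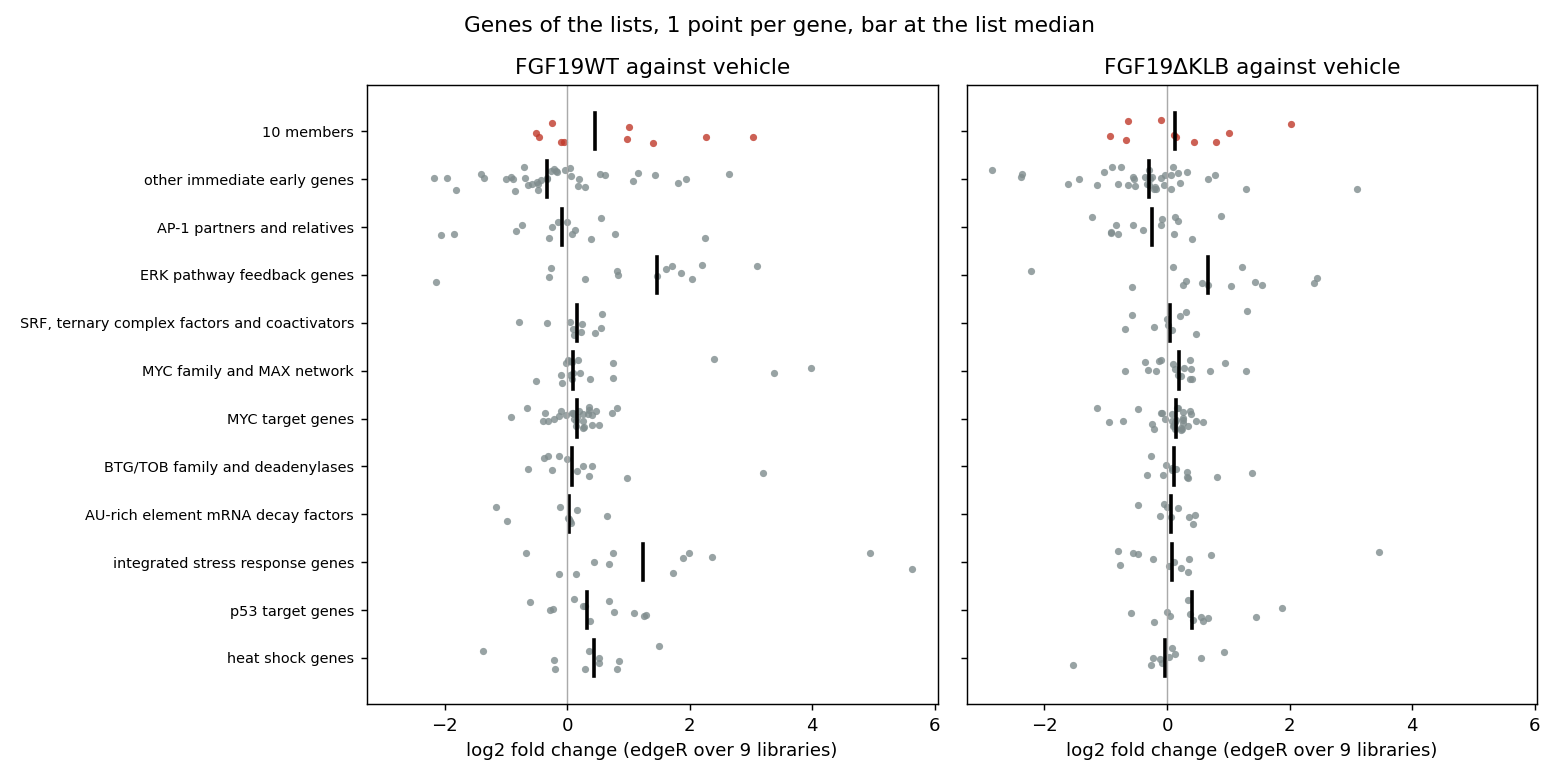
Log2 fold change in edgeR over 9 libraries (horizontal axes) of the genes of each list, with 1 point per gene and a bar at the list's median, for each protein against vehicle. The list labelled ERK pathway feedback genes, which also holds target genes, has medians of 1.46 with FGF19WT and 0.67 with FGF19ΔKLB. The stress response genes have medians of 1.23 and 0.08.

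The genes whose log2 CPM followed each member most closely over the 9 libraries were sought among 13049 non-member genes with a mean of at least 1 CPM. The libraries share 3 groups, and FGF19WT libraries 2 and 3 stand apart, so these values of Pearson's r describe likeness in these libraries only. Egr1 was followed by Oas1a (0.989), Ntpcr (0.979) and Homer3 (0.978). Atf3 was followed by Ddit4 (0.985), Slc3a2 (0.981), the heavy chain of amino acid transporters, and Arhgef3 (0.979). For Myc the closest were Fanca (0.970), Pla2g6 (0.957) and Il3ra (0.953), and for Ier3 Plscr1 (0.991), Pfdn4 (0.990) and Gm17281 (0.987). Jun was followed by Cpsf2 (0.975), Atg12 (0.955) and Psma1 (0.954), genes whose own range was narrow, with Cpsf2 between 13.0 and 15.9 CPM. Ier2 was followed by Rpl31-ps8 (0.988), a pseudogene whose reads cannot be told from those of its parent gene, Gm11263 (0.974) and Arhgef10l (0.972). For Fos, Junb, Klf6 and Btg2 the leading genes were Dnajc21 (0.948), Rad50 (0.920), Ccdc25 (0.936) and Ppp6c (0.929), the lowest leading values of the 10.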

How the data were processed

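Liver RNA of 9 libraries was sequenced. For each gene and library the authors deposited expected counts and FPKM values; the counts are whole numbers not scaled for library size. The submitters' processing notes name HISAT2 2.0, StringTie 1.3.0 and Bowtie 0.12.2 without their roles, and the build mm8, but all 28517 gene starts match GENCODE M21 on GRCm38, so positions are given on GRCm38. Whether counting used strand is not given in the sources used here. Genes were 1.46 to 1.63 times as frequent at counts from 8 to 40 that are multiples of 4 as at other counts, so counts may be weighted reads, and dividing by 4 was an alternative.

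In R 4.3.3, edgeR 4.0.16 was fitted to the counts (TMM, filterByExpr, robust quasi-likelihood, group as the only term), over 9 libraries and over the 6 of each pair. DESeq2 1.42.0, limma 3.58.1 on log2(FPKM + 1) and log2(FPKM + 0.1), other filters, DESeq2 size factors, a replicate block and leaving out libraries were alternatives. The procedure was tested on simulated data. Named are the 10 members, from each list up to 3 called genes per comparison (otherwise up to 2 with the smallest p), for each member 3 genes with the highest Pearson's r of log2 CPM (prior count 2), and genes overlapping a member. Where the text names fewer, the choice was made after values were seen. Members and lists were chosen with earlier results of these data known. A result of the list of AP-1 partners is not reported here.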

Additional observations from a re-analysis of the deposited data

How the results depend on the processing

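For FGF19WT against vehicle, edgeR over 9 libraries called 20 genes. DESeq2 called 1743, limma with a pseudocount of 1 called 69 and with 0.1 called 45, the 6-library fit 1, and leaving out 1 library gave 0 to 5221 genes, the highest without FGF19WT library 1. The 0 members called became 3 in DESeq2 and ranged from 0 to 5. For FGF19ΔKLB against vehicle, 2 genes were called over 9 libraries, 11 with no filter, 13 with a filter of 5 CPM in 3 libraries, 4 with counts divided by 4, 370 in DESeq2, 51 and 26 in limma, 292 over 6 libraries, 303 without FGF19WT libraries 2 and 3, and 0 to 172 leaving out 1 library. The 0 members called became 2 in DESeq2, 3 over 6 libraries, 3 without FGF19WT libraries 2 and 3, and ranged from 0 to 1 (Egr1, adjusted p 0.0361 in edgeR without FGF19WT library 1). For FGF19ΔKLB against FGF19WT, 0 genes became 834 in DESeq2, 1 in limma with 0.1, 1 over 6 libraries, 7 without FGF19WT libraries 2 and 3, and 0 to 3846; the 0 members became 1 in DESeq2 and ranged from 0 to 4.

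Alternatives within the 6-library fits, those of list genes included, were chosen after seeing the data. For FGF19WT the 1 gene became 1102 in DESeq2 and 0 to 4697, and the 0 members 2 in DESeq2 and 0 to 5. For FGF19ΔKLB the 292 genes became 1378 in DESeq2 and 44 to 276, and the 3 members 0 to 3. Among the fits leaving out 1 library, all 3 were called only without FGF19ΔKLB library 2. With no filter the adjusted p of Egr1 was 0.0581 in edgeR.

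With a replicate block, calls over 9 libraries became 1 for FGF19WT and 0 for FGF19ΔKLB, and over 6 libraries 0 and 103, with 0 members called. Adjusted p-values in edgeR for FGF19ΔKLB over 6 libraries were then 0.0862 for Jun, 0.0600 for Egr1 and 0.0735 for Ier2. Same-numbered libraries correlated at -0.05 to 0.15 in their deviations from group means, and not every library correlated best with its own number, so the numbers are not taken to pair samples.

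Directions changed for members close to 0 and, without FGF19WT libraries 2 and 3, also for Atf3, Myc, Ier3 and Egr1. For FGF19WT against vehicle, Junb was 0.060 and 0.077 in limma, 0.033 and 0.060 with the block over 9 and 6 libraries, and 0.032 without FGF19WT libraries 2 and 3, where Atf3 was -0.44, Myc -1.58 and Ier3 -0.31. Leaving out 1 library gave Junb -0.28 to 0.44 and Btg2 -0.41 to 0.13 (-0.40 over 6 libraries). For FGF19ΔKLB against vehicle, Btg2 was -0.13 and -0.16 in limma, and leaving out 1 library gave Junb -0.076 to 0.65, Klf6 -0.31 to 0.042 (0.041 over 6 libraries) and Btg2 -0.19 to 0.45. For FGF19ΔKLB against FGF19WT, Ier2 was -0.017 with the 5 CPM filter, -0.014 with size factors and in DESeq2, -0.0065 with counts divided by 4, -0.18 and -0.19 in limma, -0.0039 over 6 libraries and -0.00057 with the block, and -0.087 to 0.18 leaving out 1 library. Btg2 was -0.038 and -0.053 in limma and -0.092 to 0.55, and Klf6 -0.076 to 0.53. Without FGF19WT libraries 2 and 3, Egr1 was 0.45, Myc 0.94 and Ier3 1.10. The cause was not tested. With 3 libraries a group, changes within the spread of these libraries could not be resolved.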
